A study of Mus musculus with 36 samples.

Results

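Replication-dependent histone genes were taken as all genes of the mouse mm9 annotation whose symbol begins with Hist1h, Hist2h, Hist3h or Hist4h, and each was placed by its gene start in domain maps of replication timing (RT). The rule gave 70 members of 37252 annotated genes, of which 67 were among the 22350 protein-coding genes and 3 were annotated as pseudogenes (Hist1h2aj, Hist2h3c2 and Hist3h2bb-ps). The maps come from Repli-seq, in which BrdU-labelled dividing cells are sorted into early and late S phase and the newly made DNA of each fraction is sequenced. Each map assigns every domain of the genome to an early (E), middle (M) or late (L) RT state. The series held 36 libraries in 7 groups, and the maps used here rest on 8 of them.

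The CH12 shLacZ map came from 4 libraries of the mouse B lymphoma line CH12 that carried intact Rif1 and a lentiviral short hairpin RNA against LacZ as infection control. These cells were grown under stimulation with IL4, CD40 and TGF beta. The primary B WT map came from 4 libraries of activated splenic B cells of WT mice, whose age is not given in the sources used here. Each group had 2 replicates of the early and 2 of the late fraction, which were merged before states were called, so each condition is 1 map and no replicate error can be given. The study's methods describe independent sorts of a sample as technical replicates, and elsewhere describe sequencing replicates of CH12 cells as separately thawed vials, so it is not settled which of these the replicates were. A further map is named for MEFs, mouse embryonic fibroblasts. No label ties it to a sample, and it is given beside the others as a description. Cell identity could not be checked against markers, because the maps hold domains and no expression. No test between maps was possible. The intervals below are Wilson 95% intervals that cover counting over genes only, and genes of the same locus share a domain and are not independent. Read depth is unknown from the maps.

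Histones package DNA into nucleosomes, with H2A, H2B, H3 and H4 in the core particle and H1 as the linker histone. The replication-dependent genes supply the bulk of new histones during S phase, lie in clusters, and make mRNAs that end in a conserved stem-loop rather than a poly(A) tail. Stem-loop binding protein recognises that element, and CCAAT and TATA elements are common in the short promoters that divergent H2A and H2B genes share.

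The 70 members fell into 6 loci when starts within 250 kb of each other were joined. Hist1 locus A on chromosome 13 held 24 members from Hist1h2bl to Hist1h2bj over 327.1 kb (chr13:21808012-22135083). Hist1 locus B held 31 members from Hist1h4h to Hist1h2aa over 403.4 kb (chr13:23622919-24026331). Hist1h2al stood alone on the same chromosome at position 51298434. The Hist2 locus of chromosome 3 had 10 members from Hist2h2ab to Hist2h2bb over 49.8 kb (chr3:96023839-96073644), and the Hist3 locus of chromosome 11 had 3 members, Hist3h2ba, Hist3h2bb-ps and Hist3h2a, over 5.8 kb (chr11:58762413-58768187). Hist4h4 on chromosome 6 was a single gene at position 136752900.

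The stem-loop element that gives the family its 3′ end is shown for members of each RT pattern. Capitals mark a stem of 6 bases on each side of a loop of 4 bases, and the coordinates are those of the capitals in mm9 (NCBIM37). Hist1h2ac, Hist1h1t and Hist1h4c were L in CH12 shLacZ cells, Hist1h2ab and Hist1h4b were E only in primary B WT cells among the maps, Hist1h2bl was M in each map, Hist4h4 was M in CH12 shLacZ cells only, and Hist2h2ac and Hist3h2a were E in each map.
Hist1h2ac, chr13:23775346-23775361, minus strand: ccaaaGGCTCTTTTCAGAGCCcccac
Hist1h1t, chr13:23788394-23788409, plus strand: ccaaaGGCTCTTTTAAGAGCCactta
Hist1h4c, chr13:23789958-23789973, minus strand: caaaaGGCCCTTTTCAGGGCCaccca
Hist1h2ab, chr13:23843441-23843456, plus strand: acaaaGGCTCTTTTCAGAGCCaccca
Hist1h4b, chr13:23849235-23849250, plus strand: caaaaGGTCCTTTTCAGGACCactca
Hist1h2bl, chr13:21807587-21807602, minus strand: tcaaaGGCTCTTTTAAGAGCCaccca
Hist4h4, chr6:136752519-136752534, minus strand: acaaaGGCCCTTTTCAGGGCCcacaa
Hist2h2ac, chr3:96024341-96024356, minus strand: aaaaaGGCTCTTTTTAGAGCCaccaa
Hist3h2a, chr11:58768674-58768689, plus strand: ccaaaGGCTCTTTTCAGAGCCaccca

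Such a stem-loop within 100 bases after the stop codon was present in 63 of 67 members with an annotated stop codon (94.0%) and in 1188 of 21836 other protein-coding genes (5.44%). It began a median of 30 bases after the stop codon (range 21 to 58). The 63 elements used 8 different sequences, of which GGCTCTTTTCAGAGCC occurred in 39 members and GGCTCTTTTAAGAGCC in 9. The H4 genes mostly used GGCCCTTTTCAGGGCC, found in 8 members that were all H4 genes. Among the other protein-coding genes, 1 carried any of these 8 sequences at this place, 1700014N06Rik on chromosome X, and its start was M in each map. Members with no perfectly paired element found in this window were Hist1h2an, Hist1h2al, Hist2h2be and Hist2h2bb. The last 3 were E in each map and Hist1h2an was M in each map. An element with a mismatch in its stem would have been missed. In Hist1 locus B, where states differed most between maps, all 31 members had the element.

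Head-to-head pairs, in which neighbouring genes on opposite strands point away from each other with starts within 1000 bp and no overlap, numbered 14, and 13 of them joined an H2A to an H2B gene. Hist1h2aj and Hist1h2bm, whose 5′ ends overlap, were not counted. The sequence between the starts of Hist1h2ac and Hist1h2bc, L in CH12 shLacZ cells and M in the other maps, is shown beside that between Hist2h2ac and Hist2h2be, E in each map, and beside a pair of duplicates from Hist1 locus A that bear on how well reads can be placed there. Capitals mark CCAAT and TATAAA on either strand, and the sequences are the plus strand of mm9.
Hist1h2ac and Hist1h2bc, chr13:23775818-23776067: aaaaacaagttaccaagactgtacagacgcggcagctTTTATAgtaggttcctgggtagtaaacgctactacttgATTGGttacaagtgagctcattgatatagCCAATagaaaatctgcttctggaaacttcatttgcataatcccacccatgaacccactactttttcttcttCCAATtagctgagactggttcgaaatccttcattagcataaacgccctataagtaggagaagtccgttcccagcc
Hist2h2ac and Hist2h2be, chr3:96024804-96025043: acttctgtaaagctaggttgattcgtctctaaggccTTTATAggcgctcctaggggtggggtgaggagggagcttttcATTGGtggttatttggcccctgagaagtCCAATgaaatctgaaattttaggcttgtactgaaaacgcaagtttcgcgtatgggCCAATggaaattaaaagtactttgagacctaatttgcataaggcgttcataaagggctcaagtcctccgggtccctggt
Hist1h2bq and Hist1h2ao, chr13:21902069-21902235: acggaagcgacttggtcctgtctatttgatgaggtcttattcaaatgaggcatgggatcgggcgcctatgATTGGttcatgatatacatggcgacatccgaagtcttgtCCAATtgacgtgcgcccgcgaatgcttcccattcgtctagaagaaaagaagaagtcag
Hist1h2ap and Hist1h2br, chr13:21925445-21925611: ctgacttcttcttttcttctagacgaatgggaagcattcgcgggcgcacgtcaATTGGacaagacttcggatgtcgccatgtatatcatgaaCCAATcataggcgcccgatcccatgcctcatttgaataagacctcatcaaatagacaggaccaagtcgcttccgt

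The gaps between the starts of H2A and H2B pairs ran from 167 to 305 bp with a median of 215 bp. All 13 held CCAAT at least 2 times and 5 held TATAAA. In the RefSeq promoter table for GRCm38.p6 (250 bases before to 50 bases after a start), 61 members could be matched, and CCAAT on either strand was in 52 of them (85.2%) against 10248 of 27025 promoters in all (37.9%). Every matched member without CCAAT was an H4 gene, so the pooled share does not describe that class. The only matched H4 genes with CCAAT were Hist1h4a, Hist1h4c and Hist1h4d. TATAAA was in 35 of the 61 (57.4%) against 3827 of 27025 (14.2%). The Hist1 pair that was L in CH12 shLacZ cells and the Hist2 pair that was E each held 3 copies of CCAAT and 1 of TATAAA. Other E pairs differed from these. Hist3h2bb-ps and Hist3h2a, E in each map, held 2 of CCAAT and 0 of TATAAA. Hist1h2ba and Hist1h2aa, E in primary B WT cells only, held 4 and 2. Whether these counts go with RT state was not tested. The duplicates of Hist1 locus A were inverted copies 23.2 kb apart, with 167 of 167 bases identical once 1 was reverse complemented.

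Most replication-dependent histone genes did not lie in E domains. In the CH12 shLacZ map 14 of 70 members were E (20%, interval 12.3 to 30.8%), 50 were M (71.4%, 59.95 to 80.7%) and 6 were L (8.57%, 3.99 to 17.5%). Among all protein-coding genes of that map, 50.6% were E, 27.2% M and 22.1% L. In the primary B WT map 23 members were E (32.9%, 23.0 to 44.5%) and 47 were M (67.1%, 55.5 to 77.0%), against 58.0% E, 29.1% M and 12.9% L for all protein-coding genes. In the map named for MEFs 15 members were E (21.4%, 13.4 to 32.4%) and 55 were M (78.6%, 67.6 to 86.6%), against 58.6% E, 29.6% M and 11.9% L. In both of these maps 0 of 70 members were L. With genes counted as if independent, which those of a locus are not, the upper limit is 4.29% by a limit of 3 counts and 5.20% by the Wilson interval.

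States divided by locus. Of the 55 members of Hist1 loci A and B, 0 were E in the CH12 shLacZ map and in the map named for MEFs, and 8 were E in the primary B WT map (14.5%, 7.56 to 26.2%). Of the 15 members elsewhere, 14 were E in CH12 shLacZ cells and 15 were E in each of the other maps. Hist1h2al, on the same chromosome as the Hist1 loci, was E in each map. Without chromosome 13, which holds 56 members, 13 of 14 members were E in CH12 shLacZ cells and 14 of 14 in each of the other maps. Chromosome 13 itself had fewer E genes than the genome, with 28.6% of its 811 other protein-coding genes E in the CH12 shLacZ map, 43.4% in the primary B WT map and 46.4% in the map named for MEFs.

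**Figure D1:**
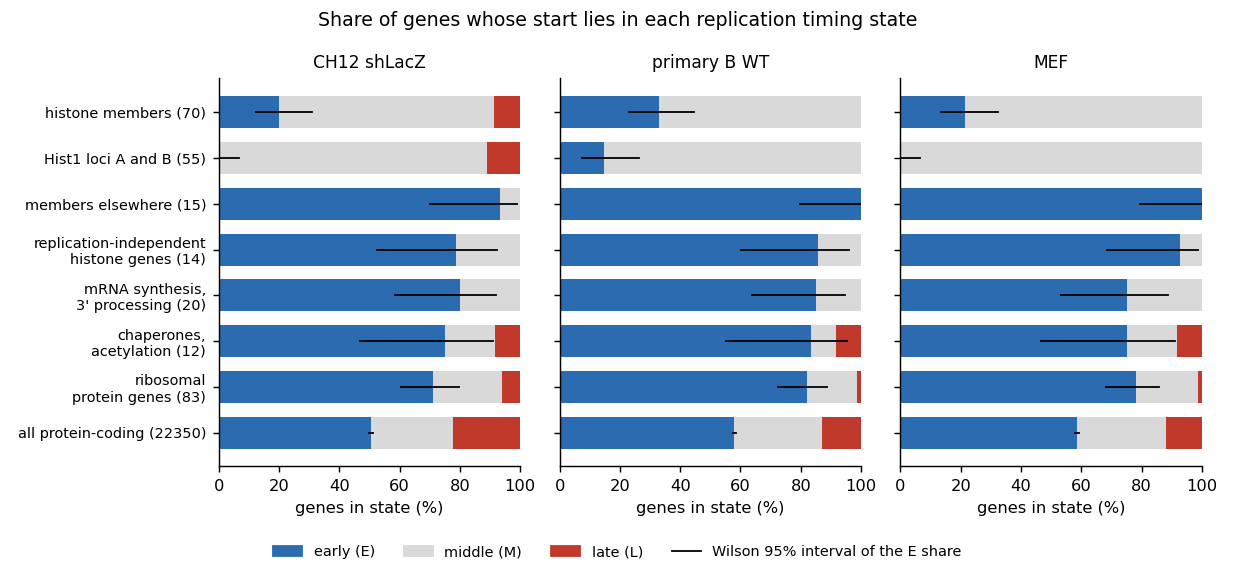
Share of genes (%, x axis) whose start lies in an E, M or L domain, for the histone members, their parts, comparison lists and all protein-coding genes (number of genes in brackets), in each of the 3 maps; black lines are Wilson 95% intervals of the E share. The Hist1 loci A and B are mostly M in each map, with 0 E members in CH12 shLacZ cells and in the map named for MEFs, while 14 or 15 of the 15 members elsewhere are E.

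Across the maps, 41 members (58.6%) were M in each, a pattern held by 10.8% of all protein-coding genes, and 14 (20%) were E in each, against 43.9%. The remaining 15 members differed between maps. Of these, 6 were L in CH12 shLacZ cells and M in the others, 8 were E in primary B WT cells and M in the others, and Hist4h4 was M in CH12 shLacZ cells and E in the others.

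The comparison of the B cell maps asked whether the same histone loci keep their RT state between a lymphoma line and primary cells. States were called in each map from its own RT values, so a difference in state is not a measured difference in RT. Over the genome, E held 29985 bins in the CH12 shLacZ map and 36885 in the primary B WT map, M held 36202 and 41824, and L held 65770 and 50226. The primary B WT map had fewer bins with a state in all, so these counts do not share a total. The state differed for 15 of 70 members (21.4%), close to the 21.5% of all protein-coding genes. All 15 had the earlier state in primary B WT cells, which is 21.4% of members, against 18.8% of all protein-coding genes. A later state there was held by 0 members and 2.75% of all protein-coding genes. Most protein-coding genes that differed also had the earlier state in primary B WT cells, 4193 of 4808. The 15 members occupied 3 stretches, of 6, 8 and 1 genes, so they are not 15 independent changes. Within Hist1 locus B 14 of 31 members differed, and within Hist1 locus A 0 of 24.

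Hist1 locus B was split at different called positions in the B cell maps and was not split in the map named for MEFs. In CH12 shLacZ cells 14 members from Hist1h4h to Hist1h4d lay in an M domain of 400 kb (chr13:23300001-23700000). A further 6 members had their annotated starts in an L domain of 100 kb (chr13:23700001-23800000). The other 11 members, from Hist1h1c to Hist1h2aa, lay in an M domain of 460 kb (chr13:23800001-24260000). In primary B WT cells 23 members from Hist1h4h to Hist1h2bb lay in an M domain of 840 kb (chr13:23000001-23840000), and the other 8 in an E domain of 1300 kb that began at position 23840001. In the map named for MEFs all 31 members lay in an M domain of 700 kb (chr13:23620001-24320000), with E domains of 100 kb and 820 kb on its sides. No limit inside the locus was thus called at the same position in the B cell maps. The CH12 shLacZ limit at 23800000 and the primary B WT limit at 23840000 lay closer together than the 300 kb span of the smoothing. Whether these limits truly differ cannot be told from the maps.

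The 6 members of the L domain in CH12 shLacZ cells were, in order of their starts, Hist1h2be, Hist1h1e, Hist1h2ac, Hist1h2bc, Hist1h1t and Hist1h4c. They encode H1, H2A, H2B and H4 proteins, with Hist1h1e a linker histone of somatic cells and Hist1h1t the linker histone of the testis. No other protein-coding gene started in the domain. It was flanked by M on both sides and was among the shortest L domains of the map, at rank 737 of 750 by length, with 0.8% of L domains shorter. Its length was below the 300 kb span over which the authors smoothed RT. The starts of the 6 genes lay between 9.7 kb (Hist1h4c) and 24.2 kb (Hist1h2ac) from its limits. Hist1h2be has an annotated model of 37.4 kb on the minus strand whose end, at position 23675611, lay in the M domain before it. Its stem-loop, 29 bases after the stop codon (chr13:23677400-23677415), lay in that M domain too, so Hist1h2be was L by its annotated start only. With members placed by gene end, 14 rather than 15 differed between the B cell maps. When each member took the state held by most bins within 150 kb of its start, an alternative chosen after seeing the data, 0 members were L in any map and 6 rather than 15 members differed between the B cell maps.

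How well short reads can be placed was measured in the reference as the share of 50-base words found once in the genome, since only uniquely aligned reads were kept. Over the L domain this share was 86.2%, with a lowest bin of 50.8%. It was 91.6% over the 100 kb before it and 95.6% over the 100 kb after it. Within the gene bodies of the 6 L members the share ran from 56.4% to 100.0% (median 91.0%), and in the 49 M members of Hist1 loci A and B from 0% to 100.0% (median 46.2%). These bodies differ in length. The L members include models of 37.4 kb (Hist1h2be) and 8.3 kb (Hist1h2bc), while no M member there was longer than 3.8 kb (Hist1h1d among them). The medians are thus no measure of placement over the domains. GC content was 41.7% over the L domain, 41.8% before it and 42.6% after it. The part of placement and of the short length in the L state was not tested.

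The 8 members that were E in primary B WT cells were Hist1h2ab, Hist1h3b, Hist1h4b, Hist1h4a, Hist1h3a, Hist1h1a, Hist1h2ba and Hist1h2aa. Each of the 5 histone classes was among them. Hist1h2ba and Hist1h2aa, the head-to-head pair at the far end, encode variants best known from the testis. The limit between M and E ran through a run of closely spaced core histone genes, with Hist1h2bb at 1.4 kb on the M side and Hist1h2ab at 3.0 kb on the E side. Of the 8, 6 lay within 15.5 kb of the limit, less than 1 bin of 20 kb, and Hist1h2ba and Hist1h2aa lay 186.0 kb and 186.3 kb from it. With the majority state within 150 kb, 5 rather than 8 members were E in primary B WT cells and M in the others.

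**Figure D2:**
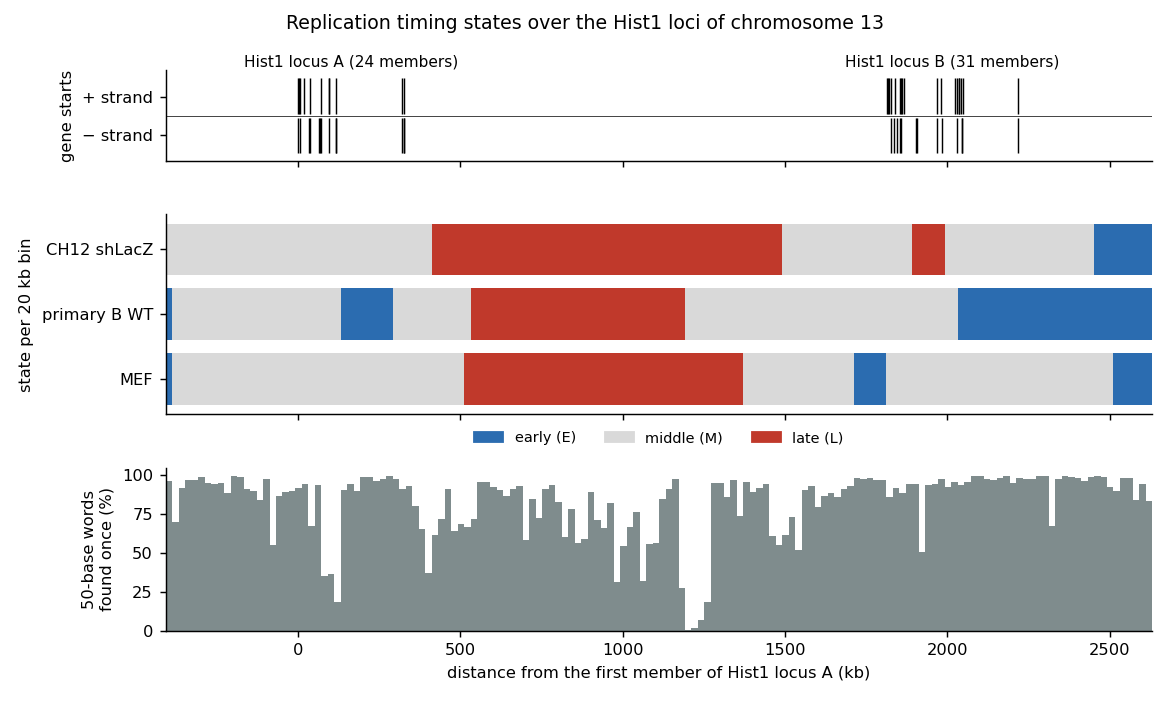
Hist1 loci A and B of chromosome 13 against distance in kb from the first member of locus A (x axis): member gene starts by strand (top), the E, M or L state of each 20 kb bin in the 3 maps (middle), and the share of 50-base words found once in the genome in each bin (%, bottom). The members sit in M bins but for the 100 kb L domain of CH12 shLacZ cells, with 6 starts, and the E domain of primary B WT cells at the right end of locus B, with 8 starts.

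Hist1 locus A was M for all 24 members in each map, but its domains differed. In CH12 shLacZ cells a single M domain of 1640 kb (chr13:20580001-22220000) held the locus, longer than 95.8% of M domains of the map, with L domains on both sides. In the map named for MEFs the M domain was 900 kb (chr13:21420001-22320000). In primary B WT cells 19 members from Hist1h2bl to Hist1h2br lay in an M domain of 520 kb with the same left limit (chr13:21420001-21940000), and 5 members from Hist1h2ah to Hist1h2bj in an M domain of 240 kb (chr13:22100001-22340000). An E domain of 160 kb between them held 0 members. Of the 3 other protein-coding genes within the locus, the zinc finger gene Zfp184 and Pom121l2 started in that E domain, while Prss16, a thymic serine protease gene, was M in each map.

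The 6 members with 0 words found once included Hist1h2bq, Hist1h2ao, Hist1h2ap and Hist1h2br of this locus, the inverted copies printed above, and the Hist2 genes Hist2h2aa1 and Hist2h2aa2. Over the bins of Hist1 locus A the share of words found once was 82.0%, with a lowest bin of 18.5%, and over those of locus B 93.1%. A read of 50 bases from these 6 genes has no unique place, so their state was read from neighbouring sequence. Of all 70 members, 31 had under 50% of their words found once. Among the 39 members at or above 50%, the E share was 20.5% in CH12 shLacZ cells, 38.5% in primary B WT cells and 23.1% in the map named for MEFs.

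The genes between Hist1 loci A and B were mostly receptor genes. Between loci A and B lay 1488 kb with 38 protein-coding genes, of which 32 were Vmn1r genes, vomeronasal receptors used in pheromone sensing. Of the 38, 0 were E, 8 M and 30 L in CH12 shLacZ cells, 0 E, 21 M and 17 L in primary B WT cells, and 2 E, 14 M and 22 L in the map named for MEFs. The 2 E genes were Btn1a1 and Btn2a2, of the butyrophilin family, 65.1 kb and 42.2 kb before Hist1h4h. The nearest gene before locus A was the olfactory receptor gene Olfr1359, 13.2 kb away, and the nearest after it was Vmn1r188, 44.7 kb away, both M in each map. The L domain between the loci was 1080 kb in CH12 shLacZ cells, 660 kb in primary B WT cells and 860 kb in the map named for MEFs.

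Within Hist1 locus B the 7 other protein-coding genes were M in CH12 shLacZ cells and in the map named for MEFs. In primary B WT cells 5 of them were E, Trim38 and the phosphate and anion transporter genes Slc17a1, Slc17a2, Slc17a3 and Slc17a4, while Hfe, which regulates iron uptake, and Gm17658 were M. Histone genes and other genes on the same side of the limit share a state by construction, since each gene took the state of the domain over its start. After the locus, Scgn, 56.8 kb from Hist1h2aa, was M, E and M in CH12 shLacZ, primary B WT and MEF order, and Lrrc16a was E in each map.

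The Hist2 and Hist3 loci lay in long E domains. Hist2 was covered by E domains of 2580 kb in CH12 shLacZ cells, 2840 kb in primary B WT cells and 2760 kb in the map named for MEFs, and 80 to 87 other protein-coding genes started in them. Its members were far from the limits, with Hist2h2ab the farthest of all members in each map at 716.2 kb, 1136.2 kb and 856.2 kb. Its nearest neighbours, Bola1 and the Fc receptor gene Fcgr1, were E in each map. Hist3 was covered by E domains of 3900 kb, 4080 kb and 4380 kb in the same order, but near their left limits. Hist3h2ba lay 42.4 kb from the limit in CH12 shLacZ cells and in the map named for MEFs, where the limit was the same, and 102.4 kb in primary B WT cells. Rnf187, 10 kb before it, and Trim11, 23.4 kb after the locus, were E in each map. Hist1h2al lay in E domains of 2540 kb, 2320 kb and 2620 kb, with the same left limit in both B cell maps, 278.4 kb before the gene. Its neighbours Nxnl2 and S1pr3 were E in each map.

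Hist4h4 was the single member outside the Hist1 loci that was not E in a map. It lay in an M domain of 500 kb in CH12 shLacZ cells (chr6:136580001-137080000), between an E and an L domain and 172.9 kb from the E domain. In primary B WT cells it lay 307.1 kb inside an E domain of 780 kb, and in the map named for MEFs 12.9 kb inside an E domain of 460 kb. H2afj, which encodes a replication-independent H2A variant 3.9 kb away, had the same states as Hist4h4, while Gucy2c, 22.6 kb on the other side, was M, E and M.

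**Figure D3:**
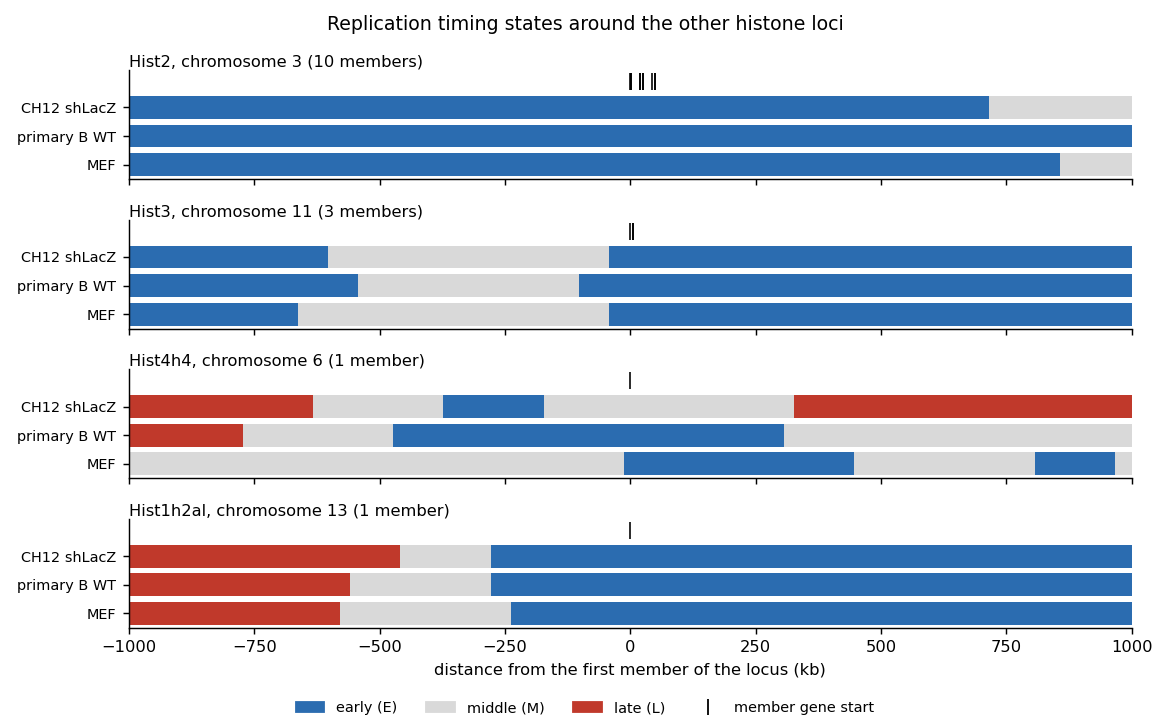
Domain states (colour) within 1000 kb of the first member of the Hist2, Hist3, Hist4h4 and Hist1h2al loci (x axis, distance in kb) in the 3 maps, with member gene starts as ticks. Hist2, Hist3 and Hist1h2al are E in each map, Hist3 within 108.2 kb of a limit, and Hist4h4 is M in CH12 shLacZ cells and E in the other maps.

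Members had lower median distances to domain limits than protein-coding genes as a whole. The member medians mostly reflect Hist1 loci A and B, which hold 55 of the 70 members in few domains. All 10 Hist2 members lay farther from a limit than the median of all protein-coding genes in each map. The median distance from a member start to the nearest limit of its domain was 89.6 kb in CH12 shLacZ cells, against 304 kb for all protein-coding genes, 119 kb against 313 kb in primary B WT cells, and 231 kb against 415 kb in the map named for MEFs. Within 100 kb of a limit lay 37, 31 and 20 of the 70 members (52.9%, 44.3% and 28.6%), against 20.3%, 18.8% and 15.2% of all protein-coding genes. Most of these members were M. Among M genes alone the medians were 86.0 kb for the members and 152 kb for all in CH12 shLacZ cells, 94.2 kb and 174 kb in primary B WT cells, and 219 kb and 252 kb in the map named for MEFs. The nearest members were Hist1h4c at 9.7 kb, Hist1h2bb at 1.4 kb and Hist1h4h at 2.9 kb in the respective maps, all in Hist1 locus B.

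Members outside E domains were not equally far from one. In CH12 shLacZ cells the 56 members that were M or L had a median distance to the nearest E domain of 624 kb, from 172.9 kb for Hist4h4 to 2452 kb for Hist1h2bl. In primary B WT cells the median over 47 members was 94.2 kb and the largest 217.1 kb, for Hist1h4h. In the map named for MEFs it was 234 kb over 55 members, with 715.1 kb for Hist1h2bj the largest. The first gene of Hist1 locus A was thus the farthest from E sequence in CH12 shLacZ cells.

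**Figure D4:**
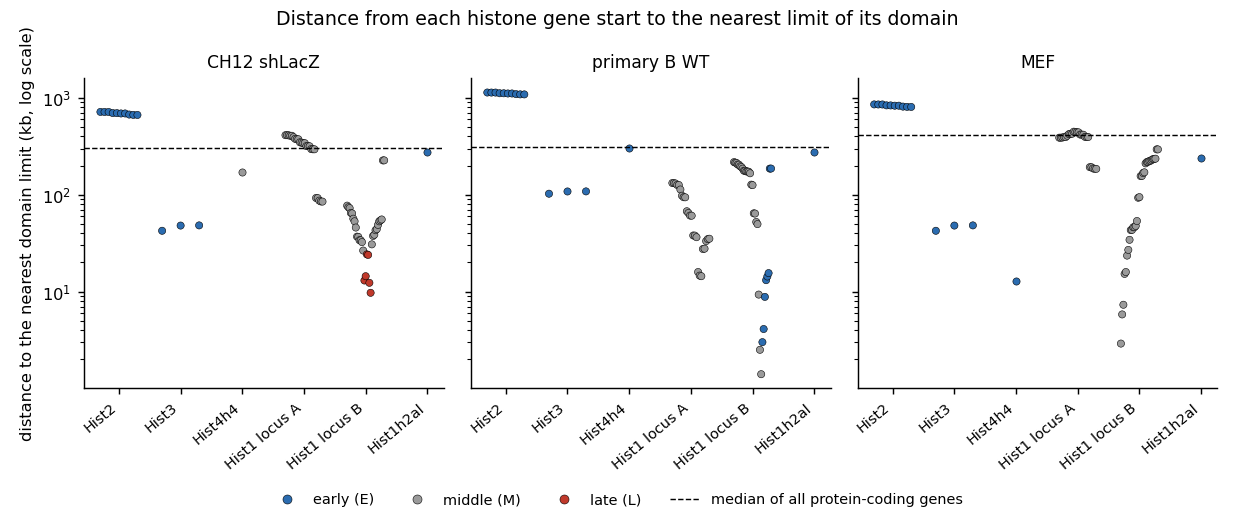
Distance from each member start to the nearest limit of its domain (y axis, kb, log scale) by locus and map; points are members in order of position, coloured by state, and the dashed line is the median of all protein-coding genes. Hist2 members lie above the median in each map, and the points of Hist1 locus B fall to 9.7 kb, 1.4 kb and 2.9 kb in CH12 shLacZ, primary B WT and MEF order.

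Histone classes were mixed within the loci. All 6 H1 genes lie in Hist1 loci A and B. Of them, Hist1h1e and Hist1h1t were L and the other 4 M in CH12 shLacZ cells, Hist1h1a was E and 5 were M in primary B WT cells, and all were M in the map named for MEFs. E members in CH12 shLacZ, primary B WT and MEF order numbered 6, 8 and 6 of 20 H2A genes, 4, 5 and 4 of 19 H2B genes, 3, 5 and 3 of 12 H3 genes, and 1, 4 and 2 of 13 H4 genes. Among the members of Hist1 loci A and B alone, the H3 genes were M in 9 of 9 cases in CH12 shLacZ cells, and 10 of 11 H4 genes were M there, with Hist1h4c the exception.

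Genes whose products accompany these histones were set beside them. Replication-independent histone genes, here a list of histone genes with other symbols, were E in 11, 12 and 13 of 14 cases in CH12 shLacZ, primary B WT and MEF order. Only those annotated as protein-coding were counted. The exceptions were the H2A gene H2afj, the testis H1 gene H1fnt and the H2A variant gene H2afb1, each M in CH12 shLacZ cells only, the macroH2A genes H2afy and H2afy2, M in primary B WT cells only, and the H2A.Z gene H2afz, M in the map named for MEFs only. Genes for histone mRNA synthesis and 3′ processing were E in 16, 17 and 15 of 20 cases. Npat, the coactivator of histone gene transcription, and Cpsf3, which encodes the nuclease that cuts the histone pre-mRNA, were M in each map. Slbp, which encodes the stem-loop binding protein, was E in each map. Snrpb was M in CH12 shLacZ cells and in the map named for MEFs, Eri1 was M in CH12 shLacZ cells, Cpsf2 was M in primary B WT cells, and Pou2f1 and Cstf2 were M in the map named for MEFs. Histone chaperone and acetylation genes were E in 9, 10 and 9 of 12 cases. Asf1a was M in each map, Rbbp7 was M but for an E state in primary B WT cells, and Mms22l was L in each map.

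The 83 Rpl and Rps ribosomal protein genes, a large family of short genes that is scattered over the chromosomes, had 59, 68 and 65 E members (71.1%, 81.9% and 78.3%) in the same order. The 40 Hox genes, which like the histone genes lie in a few dense clusters, had 9, 31 and 40 E members (22.5%, 77.5% and 100.0%). The corresponding shares of the histone members were 20%, 32.9% and 21.4%.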

How the data were processed

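Early and late S phase fractions were sequenced, and per the methods the authors trimmed reads, aligned them to mm9, kept unique alignments, merged replicates, removed duplicates, computed log2 early over late reads in 20 kb bins, smoothed it over 300 kb and called 3 states with a hidden Markov model. Per the submitters' processing notes the tools were Trim Galore 0.6.5, BWA 0.7.17, SAMtools 1.9, bedtools 2.29.2 and deepTools. The deposited files hold a start, an end and a state number for each domain and no RT value, so the read depth behind a state is unknown. State numbers are not named in the files. A coding set for this work was used (E is 2, M 1 and L 0 in both B cell maps, and E is 0, M 2 and L 1 in the map named for MEFs) and was checked against gene density, GC content and which states touch. E had the most protein-coding gene starts per Mb in each map, with 18.9 in E, 8.41 in M and 3.76 in L of the CH12 shLacZ map, and E and L domains touched in 0 places in each map. The map ends equalled the chromosome lengths of NCBIM37, and genes came from GENCODE M1.

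Samples were grouped by their titles, and 5 of the 7 groups were not analysed here. The 5′ end of a gene, by strand, gave its position. Boundaries are blurred by the smoothing and merged replicates hide their spread, so no test between maps was made. Members, lists and alternatives were chosen with earlier results of these data known. Of the 49 genes of the comparison lists, 46 are annotated as protein-coding and were counted. Genes were named by rule: members outside the locus with most members, the first and last member of a locus, members not E in a map or differing between maps, the members nearest to and farthest from a limit, the first protein-coding gene on either side and those within a locus, and list genes not E in a map. Slbp fell outside this rule. Btn1a1, Lrrc16a, 1700014N06Rik and the members in which no stem-loop was found were named after their values were seen. Stem-loops were a perfectly paired 6-base stem around a 4-base loop in the 100 bases after an annotated stop codon. The functions that place genes, measure distances to limits and join domains were tested on a simulated map, and 5 of 5 checks recovered the known value. The software was matplotlib 3.10.9, scipy 1.17.1, pandas 2.3.3 and numpy 2.4.6 under Python 3.11.15.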

Additional observations from a re-analysis of the deposited data

How the results depend on the processing

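Across 51 alternative values of 12 results, 36 stayed within the limits set for them and 15 did not. These limits were the Wilson interval for shares and 1.5 times the reported value for counts and median distances. Leaving out chromosome 13 raised the E share of members to 92.9% in CH12 shLacZ cells and 100.0% in primary B WT cells and in the map named for MEFs, since 14 members remain. Without members within 100 kb of a boundary, the E share in CH12 shLacZ cells was 33.3%. The count of members whose state differs between the B cell maps, 15 of 70, became 6 of 70 with the majority state within 150 kb, 3 of 20 without members within 100 kb of a boundary, and 1 of 14 without chromosome 13. Counted as 20 kb bins that hold a member start, it was 6 of 22, a unit other than genes. An L domain of 100 kb cannot hold most of a 300 kb window, so the majority setting removes it by construction. Counting all annotated genes lowered the E share of all genes to 44.8%, 51.7% and 51.8% in CH12 shLacZ, primary B WT and MEF order, and autosomes only raised it to 51.8%, 59.2% and 61.1%. The stem-loop share was 68.7% in the first 50 bases after the stop codon. Joining loci at 100 kb gave 8 loci in place of 6. The settings by majority and by words found once were added once the data had been seen. No paired analysis was possible because each condition is a single map of pooled replicates, and for the same reason no replicate could be left out. What depth limits is unknown, since the maps hold no reads.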
